A study of Mus musculus with 9 samples.

Results

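The transcripts described here are those of 10 circadian clock genes in mouse kidney: Arntl, Npas2, Per1, Per2, Per3, Cry1, Cry2, Nr1d1, Dbp and Hlf. They were taken by gene symbol from the deposited table, where each has 1 row, so that 10 of 34310 genes are described. Poly(A) RNA was sequenced from fresh kidney of 9 mice in 3 groups of 3: mice given LPS+Tβ4, mice given LPS alone, and mice given saline. LPS is lipopolysaccharide, the endotoxin of Gram-negative bacteria, and Tβ4 is thymosin β4, a peptide that binds monomeric actin. Both endotoxin groups thus received LPS, and no group received Tβ4 without it. The labels give no dose, route, strain, sex or age. They also give neither the interval between injection and collection nor the hour of the day at which kidneys were taken. No value below can thus be placed on the daily cycle. A difference between groups in the hour of collection could not be told apart from treatment.

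The mammalian clock is a feedback loop of transcription factors that runs in nearly every cell, kidney tubule cells included. A dimer of CLOCK, or its paralog NPAS2, with ARNTL (also called BMAL1) binds E-box sequences and switches on the Per and Cry genes, whose proteins then inhibit the dimer. The same dimer drives Nr1d1, whose product REV-ERBα represses Arntl and Npas2 through ROR elements, and drives the output factor gene Dbp. DBP, TEF and HLF are the PAR bZIP family of factors, which activate genes that carry D-boxes and so pass the rhythm to metabolic and transport genes.

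Promoter sequence is shown for the 4 members that passed a test and for the 2 other members that carried a D-box pair or a ROR element, since these are the sites through which the loop is wired. Windows from RefSeq on GRCm38.p6 held 250 bases before and 50 after an annotated start. They were found for 9 of the 10 members (11 windows, Arntl and Per1 having 2 each), and Per2 was not among them. Each window was searched on both strands for the E-box CACGTG, the E-prime-box CACGTT, the D-box TTATGNAA, the ROR element TAGGTCA and the cAMP response element TGACGTCA. Of 32851 windows in the mouse table, these were held by 7.15%, 4.68%, 3.38%, 2.61% and 1.79%. The lines below give the 250 bases before the start, 5′ to 3′ on the gene's strand, with matches in capitals (AACGTG is CACGTT read on the other strand). For Arntl, 30 bases around its match are given, which lies inside the transcript.
Per1, chr11:69098699-69098948, plus strand: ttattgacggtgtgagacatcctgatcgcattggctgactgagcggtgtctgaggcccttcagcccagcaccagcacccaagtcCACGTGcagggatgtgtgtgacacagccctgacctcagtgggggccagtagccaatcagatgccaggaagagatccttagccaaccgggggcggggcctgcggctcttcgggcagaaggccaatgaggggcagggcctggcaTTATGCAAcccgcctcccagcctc
Cry1, chr10:85185055-85185304, minus strand: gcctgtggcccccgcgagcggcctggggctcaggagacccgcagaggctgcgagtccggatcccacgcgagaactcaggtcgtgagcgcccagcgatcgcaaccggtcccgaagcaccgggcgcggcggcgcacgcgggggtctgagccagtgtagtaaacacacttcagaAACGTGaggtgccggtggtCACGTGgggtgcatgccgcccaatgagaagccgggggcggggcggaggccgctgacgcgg
Cry2, chr2:92434070-92434319, minus strand: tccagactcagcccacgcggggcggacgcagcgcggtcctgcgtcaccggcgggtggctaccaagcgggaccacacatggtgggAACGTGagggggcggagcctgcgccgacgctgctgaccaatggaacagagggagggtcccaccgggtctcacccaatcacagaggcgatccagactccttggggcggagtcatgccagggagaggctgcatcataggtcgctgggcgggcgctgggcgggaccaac
Hlf, chr11:90390918-90391167, minus strand: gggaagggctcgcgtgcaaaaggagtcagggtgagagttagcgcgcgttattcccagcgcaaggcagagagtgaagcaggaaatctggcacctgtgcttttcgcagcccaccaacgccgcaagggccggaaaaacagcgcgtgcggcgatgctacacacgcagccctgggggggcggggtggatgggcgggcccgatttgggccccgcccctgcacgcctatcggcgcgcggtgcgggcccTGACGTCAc
Per3, chr4:151044666-151044915, minus strand: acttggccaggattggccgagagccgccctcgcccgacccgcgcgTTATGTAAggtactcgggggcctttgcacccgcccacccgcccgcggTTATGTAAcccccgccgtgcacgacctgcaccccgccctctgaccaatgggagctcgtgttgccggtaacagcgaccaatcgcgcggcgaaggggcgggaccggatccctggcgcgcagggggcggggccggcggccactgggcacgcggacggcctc
Arntl, chr7:113207531-113207560, plus strand: aggcagaaagTAGGTCAgggacggaggtgc

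The E-box was in 2 member promoters, 166 bases before 1 of the 2 starts of Per1 and 60 bases before the start of Cry1. The E-prime-box was in 3, those of Cry1, Cry2 and Nr1d1, at 79, 166 and 28 bases before the start. Per3 carried 2 D-boxes and no E-box in its window, while Per1 carried 1 D-box 24 bases before the same start as its E-box. The other Per1 window held none of the 5 sequences. The ROR element was in Arntl alone among the members with a window, and Hlf had none of the 4 clock motifs, with a cAMP response element close to its start. Neither Dbp nor Npas2 held any of the 5 sequences in these windows, which says nothing about sites elsewhere in those genes.

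Library totals ran from 53 to 62 M counts, and the members had between 219 counts (Cry1 in saline replicate 3) and 8598 counts (Per1 in LPS replicate 2), so that the spread between mice, not counting error, set the precision. Levels below are CPM, that is counts scaled to library size, after TMM normalisation. Each change is given on the log2 scale ± SE and comes from edgeR's quasi-likelihood test over the 15015 genes whose FPKM averaged 0.5 or more, all 10 members among them, and a gene passed at an adjusted p under 0.05. Markers of other cells split the libraries: 5 urothelial genes summed to 1.03, 0.758 and 65.9 CPM in LPS+Tβ4 replicates 1, 2 and 3, to 55.1, 46.2 and 0.93 CPM in LPS and to 2.13, 87 and 74.5 CPM in saline, with Upk2 and Upk3a at 0 in some libraries. The 10 nervous tissue genes, all 10 without overlap between LPS+Tβ4 and either other group, summed to 571 to 694 CPM in LPS+Tβ4, against 35.5 to 190 CPM in LPS and 71.4 to 78.9 CPM in saline. The 7 proximal tubule genes, the defining markers of the main kidney epithelium, were present in every library and summed to 1059 to 1640 CPM in LPS+Tβ4, 606 to 2414 CPM in LPS and 7998 to 10365 CPM in saline. In bulk tissue, fewer cells of a type and less RNA per cell cannot be told apart.

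In LPS kidneys, Per1, Cry1 and Cry2, all repressors of the loop, rose to between 3.29 and 3.51 times their saline level, and Hlf, the most strongly changed member, fell 15-fold. The other 6 members did not pass: Arntl, Npas2, Per2 and Dbp had positive changes between 0.56 and 0.76, Nr1d1 stood at 0.17 and Per3 at -0.66. These 3 rises and 1 fall stand against 20.9% of all tested genes that were higher and 22.2% that were lower, or 43.1% in either direction, so that the share of members called was near that of the transcriptome. Ranges did not overlap for the same 3 higher and 1 lower members, against 25.8% and 28.5% of all tested genes (54.3% in either direction). The median change of all 10 members was 0.62, beside 0.02 over all tested genes. The 6 leukocyte genes summed to 72.6 to 94.7 CPM in LPS and 28.3 to 39.9 CPM in saline. Of the 5 tested, 4 were called higher, whereas 1 of the 6 was lower in LPS without overlap. Mitochondrial transcripts made up 7.64% to 10.6% of counts in LPS and 12.9% to 16.2% in saline. The part of leukocyte or mitochondrial transcripts in the changes of the clock genes was not tested. Addition of Tβ4 to LPS went with lower Per1, Cry1 and Cry2 and higher Hlf than LPS alone, a comparison in which 6.83% of all genes passed and whose calls depended on single libraries.

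**Figure D1:**
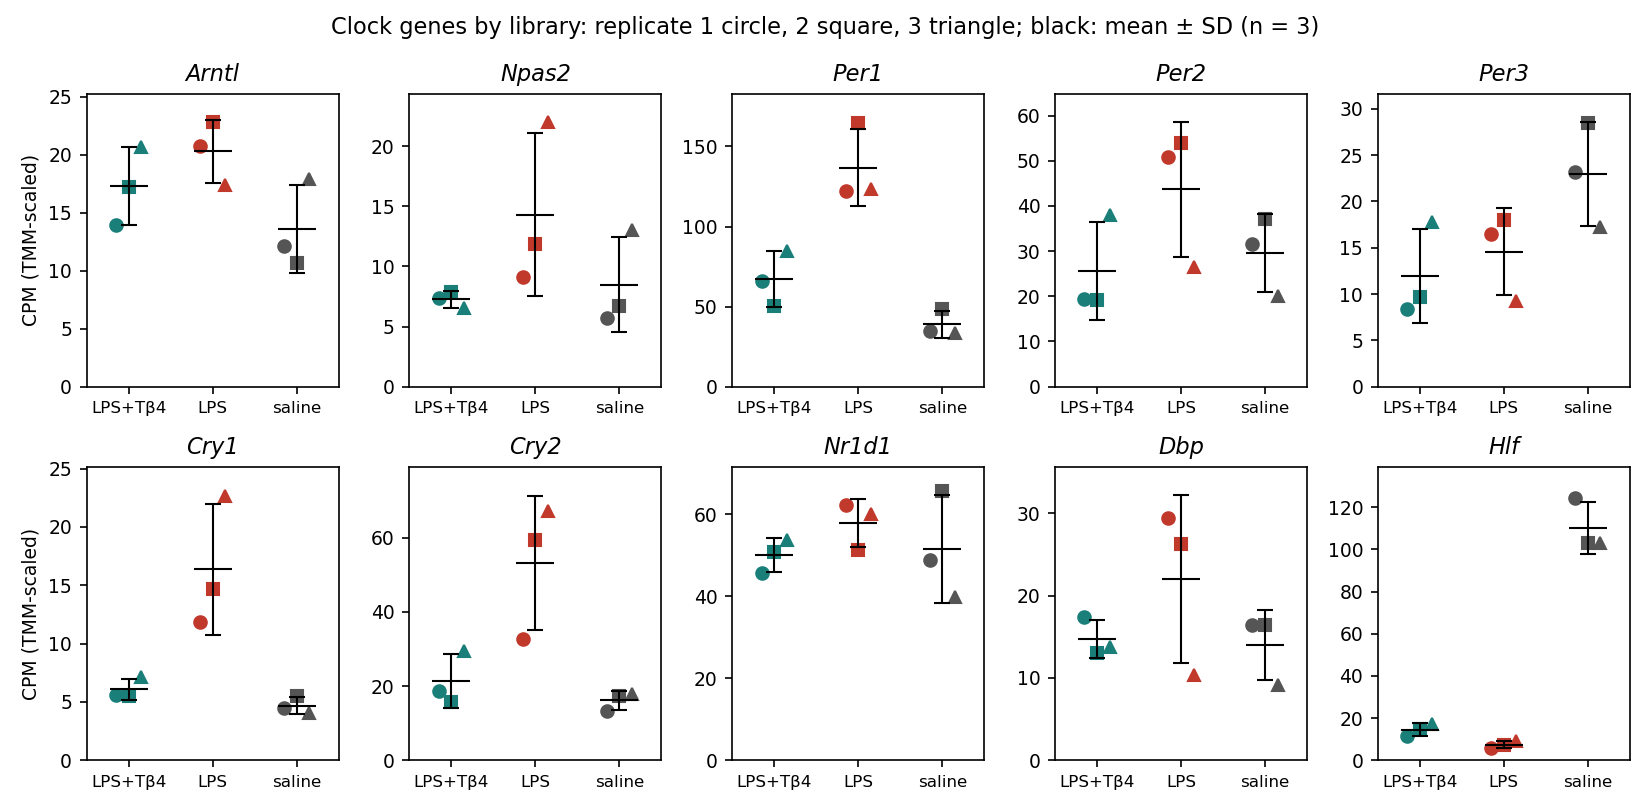
Level of each of the 10 clock genes in CPM (TMM-scaled, linear axes from 0) in LPS+Tβ4, LPS and saline kidneys, 1 point per mouse with mean ± SD (n = 3). Hlf lies between 103 and 124 CPM in saline and under 18 CPM in all 6 endotoxin libraries, whereas Cry1, Cry2 and Per1 are highest in the 3 LPS libraries.

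Among the activators, Arntl encodes the obligate partner of the loop's driving dimer. Arntl had 20.7, 22.8 and 17.4 CPM in LPS, against 12.1, 10.7 and 17.9 CPM in saline. The groups overlapped through saline replicate 3, which exceeded LPS replicate 3. Its change was 0.58 ± 0.24 (edgeR adjusted p = 0.078). It passed under 4 of 22 alternative fits, among them that without saline replicate 3, at 0.87 (adjusted p = 0.027). Npas2, the CLOCK paralog, had 9.08, 11.8 and 22 CPM in LPS and 5.68, 6.72 and 13 CPM in saline. The third library was the highest in both groups, and the change of 0.76 ± 0.40 did not pass (edgeR adjusted p = 0.16). Npas2 passed under 1 of 22 alternatives, that without saline replicate 3, at 1.25 (adjusted p = 0.044). Over the 9 omissions of 1 library its change ran from 0.30 to 1.25. Clock itself, which is not among the 10, averaged 60.8 ± 9.99 CPM in LPS and 75 ± 3.59 CPM in saline (SD, n = 3 each). All its LPS libraries were below all saline libraries, as for 28.5% of all tested genes. It did not pass (edgeR adjusted p = 0.11) except without LPS replicate 1 (-0.37, adjusted p = 0.045). In LPS+Tβ4 it was above LPS without overlap, as for 14.4% of all tested genes, and did not pass (0.42 ± 0.14, adjusted p = 0.10).

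The 3 Period genes, which encode the PAS-domain partners of the cryptochromes in the repressor complex, behaved differently from each other. Per1 had 122, 165 and 124 CPM in LPS, against 35, 48.7 and 33.2 CPM in saline. Every LPS library was above every saline library, with a change of 1.81 ± 0.24 (edgeR adjusted p = 0.00068) that passed under all 23 alternatives. Per2 had 50.7, 53.8 and 26.6 CPM in LPS and 31.5, 37.1 and 20.1 CPM in saline. LPS replicates 1 and 2 were above all saline libraries and LPS replicate 3 was below 2 of them (0.56 ± 0.37, adjusted p = 0.25). Per3 had 16.5, 18 and 9.24 CPM in LPS and 23.2, 28.5 and 17.2 CPM in saline. It was the only Period gene with a negative change, and LPS replicate 2 lay within the saline range (-0.66 ± 0.36, adjusted p = 0.17). By FPKM, which corrects for transcript length, Per1 made up 73.4 ± 6.2% of the summed Period transcripts in LPS and 48.5 ± 4.35% in saline (SD, n = 3 each).

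The cryptochromes, which inhibit the activator dimer directly, rose together. Cry1 had 11.8, 14.7 and 22.6 CPM in LPS, against 4.46, 5.51 and 4.05 CPM in saline. Cry2 had 32.7, 59.5 and 67.2 CPM in LPS, against 13.2, 17.3 and 18 CPM in saline. For both genes the ranges were apart, with LPS replicate 1 the lowest and LPS replicate 3 the highest of the LPS libraries. Cry1 changed by 1.81 ± 0.28 (edgeR adjusted p = 0.0014) and Cry2 by 1.72 ± 0.32 (adjusted p = 0.0035), and each passed under all of its 22 alternatives. A gene named D930015M05Rik overlaps Cry2 on the opposite strand. In the GENCODE M21 annotation, Gm45355 overlaps Arntl and Gm20428 overlaps Npas2 in the same way. The sources used here do not say how counting treated strand. Among the members, Npas2 is overlapped on its own strand by Gm3617, and Per3 by Camta1. The FPKM ratio of Cry2 to Cry1 was 1.73 ± 0.37 in LPS and 1.86 ± 0.43 in saline, so that the balance of the pair differed by less than its spread.

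Nr1d1, the heme-sensing repressor of Arntl, did not pass the test. It had 62.2, 51.2 and 60.1 CPM in LPS and 48.9, 65.7 and 39.8 CPM in saline, with the LPS range inside the saline range (0.17 ± 0.19, edgeR adjusted p = 0.49). It overlaps Thra on the opposite strand in the GENCODE M21 annotation. Dbp had 29.5, 26.3 and 10.3 CPM in LPS and 16.4, 16.5 and 9.15 CPM in saline. LPS replicates 1 and 2 were above all saline libraries and LPS replicate 3 was below 2 of them, and Dbp did not pass (0.65 ± 0.39, adjusted p = 0.21). It passed under 2 of 23 alternatives, among them that without LPS replicate 3 (0.99, adjusted p = 0.023). Sphk2 overlaps Dbp on the opposite strand.

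Hlf, a PAR bZIP factor named for its role in human leukaemia, had 5.92, 7.1 and 8.97 CPM in LPS, against 124, 103 and 103 CPM in saline. The groups were far apart, with a change of -3.91 ± 0.23 (edgeR adjusted p = 3.7e-05) that stayed between -4.08 and -2.86 and passed under all 23 alternatives. The 7 proximal tubule genes were lower in the same libraries, with no overlap for 7 of 7, and their part in the fall of Hlf was not tested. Tef, the paralog that is not among the 10, had 76.6, 128 and 116 CPM in LPS, against 290, 302 and 235 CPM in saline, and fell by 1.37 ± 0.23 on the log2 scale (adjusted p = 0.002). By FPKM, the summed PAR bZIP transcripts were 20 ± 3.33 in LPS and 45.9 ± 6.55 in saline (SD, n = 3 each). Hlf supplied 5.06 ± 1.55% of them in LPS and 29.5 ± 3.13% in saline, and Dbp 33.1 ± 15.2% in LPS and 8.17 ± 1.63% in saline. Nfil3 encodes a bZIP repressor that competes for the same D-boxes. It rose by 1.61 ± 0.37 (adjusted p = 0.0084), with 19.9, 33.2 and 46.9 CPM in LPS and 10.9, 10.6 and 11.1 CPM in saline.

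**Figure D2:**
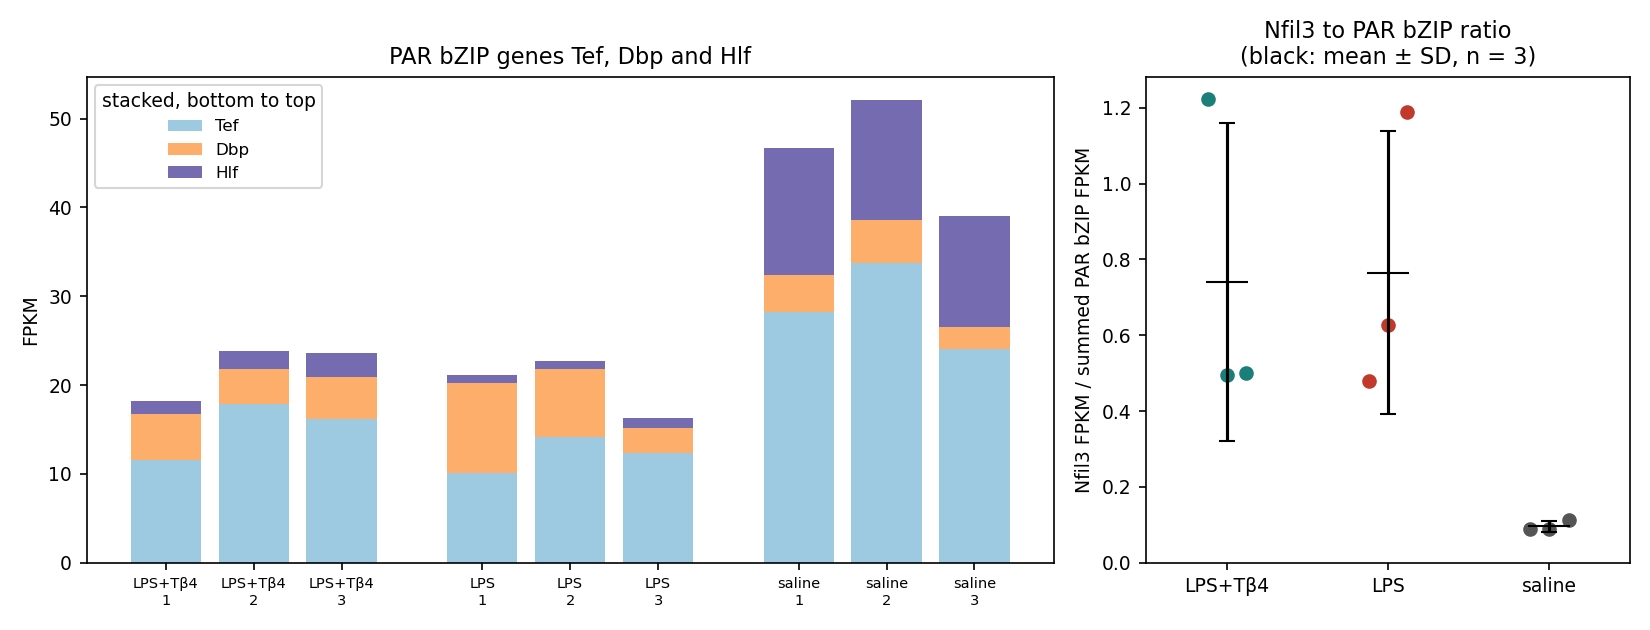
Left, stacked FPKM of Tef, Dbp and Hlf in each library, with LPS+Tβ4, LPS and saline from left to right. Right, ratio of Nfil3 FPKM to the summed PAR bZIP FPKM, 1 point per mouse with mean ± SD (n = 3), which was 0.74 ± 0.42 in LPS+Tβ4, 0.76 ± 0.37 in LPS and 0.097 ± 0.015 in saline.

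Tβ4 given with LPS was compared with LPS alone. Per1 had 66.1, 50.3 and 85 CPM in LPS+Tβ4, against 122, 165 and 124 CPM in LPS. Cry1 had 5.59, 5.5 and 7.11 CPM in LPS+Tβ4, against 11.8, 14.7 and 22.6 CPM in LPS. Cry2 had 18.7, 15.6 and 29.6 CPM in LPS+Tβ4, against 32.7, 59.5 and 67.2 CPM in LPS. The ranges of these 3 repressor genes did not overlap, and LPS+Tβ4 replicate 3 was the highest of its group each time. The changes were -1.03 ± 0.23 for Per1 (edgeR adjusted p = 0.041), -1.43 ± 0.28 for Cry1 (adjusted p = 0.026) and -1.32 ± 0.32 for Cry2 (adjusted p = 0.047). Hlf had 11.3, 14.8 and 17.3 CPM in LPS+Tβ4, against 5.92, 7.1 and 8.97 CPM in LPS, again without overlap. It rose by 0.98 ± 0.21 (adjusted p = 0.032), to a level that was still 7.61-fold below saline.

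These 3 falls and 1 rise among 10 members stand against 2.33% of all genes lower and 4.5% higher in the same comparison. The members' median change was -0.68, beside -0.01 over all tested genes. Ranges did not overlap for 4 lower and 1 higher member, against 11.9% and 14.4% of all tested genes (26.3% in either direction). All 4 calls were near the threshold. Omission of 1 library ended the call of Per1 in 7 of 9 cases, of Cry1 in 6, of Cry2 in 7 and of Hlf in 6. For Per1 and Cry2 these were replicates 2 and 3 of LPS, replicates 1 and 2 of LPS+Tβ4 and every saline library. They were the same libraries but saline replicate 2 for Cry1, and for Hlf replicate 2 of LPS, replicates 2 and 3 of LPS+Tβ4 and every saline library. Without LPS+Tβ4 replicate 2 the adjusted p was 0.15 for Per1, 0.13 for Cry1, 0.19 for Cry2 and 0.13 for Hlf, and without LPS replicate 2 it was 0.13, 0.074, 0.14 and 0.11. The sizes moved less: over the 9 omissions Per1 stayed between -1.26 and -0.86, Cry1 between -1.63 and -1.13, Cry2 between -1.66 and -1.12 and Hlf between 0.81 and 1.15. Saline libraries are in neither group compared here and enter through the shared spread and the TMM scaling. Without saline replicate 1 or 3 none of the 4 passed (edgeR adjusted p = 0.051 to 0.087). Nervous tissue transcripts were higher in the same LPS+Tβ4 libraries; with their summed level as a term, an alternative added after the data were seen, Cry1 was at -0.37 (adjusted p = 0.67), Cry2 at -0.34 (adjusted p = 0.79), Per1 at -1.17 (adjusted p = 0.27) and Hlf at 1.56 (adjusted p = 0.15). Since that level is high in all 3 LPS+Tβ4 libraries and low in the other 6, the term and the group can hardly be told apart in these values. The 5 erythroid genes were lower in LPS+Tβ4 than in LPS, 5 of 5 called and without overlap, with sums of 182 to 263 CPM in LPS+Tβ4 and 536 to 707 CPM in LPS, and their part in the changes of the 4 clock genes was not tested.

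**Figure D3:**
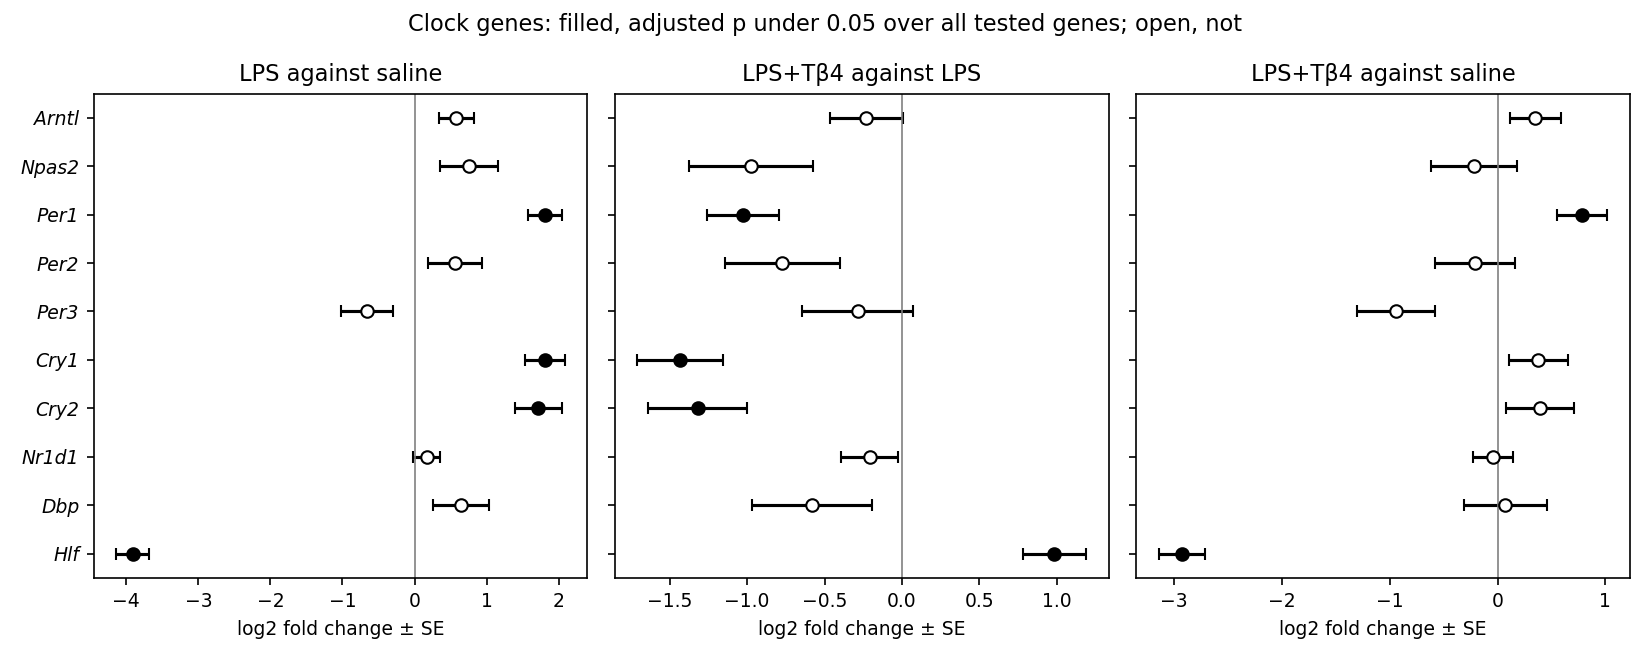
Log2 fold change ± SE of each clock gene in the 3 comparisons from the edgeR fit of all 9 libraries, filled where the adjusted p was under 0.05. Per1, Cry1 and Cry2 lie right of 0 in LPS against saline and left of 0 in LPS+Tβ4 against LPS; both comparisons use the same 3 LPS libraries.

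The remaining 6 members did not pass between LPS+Tβ4 and LPS. Npas2 had 7.39, 7.87 and 6.52 CPM in LPS+Tβ4, below its 9.08, 11.8 and 22 CPM in LPS without overlap (-0.98 ± 0.40, edgeR adjusted p = 0.17). Per2 had 19.5, 19.2 and 38 CPM in LPS+Tβ4, and the third of these lay inside the LPS range of 26.6 to 53.8 CPM (-0.77 ± 0.37, adjusted p = 0.24). Per2 passed under 1 of 23 alternatives, that without replicate 3 of both endotoxin groups (-1.46, edgeR adjusted p = 0.023). Dbp had 17.4, 13 and 13.8 CPM in LPS+Tβ4, within the 10.3 to 29.5 CPM of LPS (-0.58 ± 0.39, adjusted p = 0.39). Per3 had 8.34, 9.73 and 17.8 CPM in LPS+Tβ4, between 9.24 and 18 CPM in LPS except for the lowest (-0.29 ± 0.36, adjusted p = 0.67). Arntl had 14, 17.3 and 20.7 CPM in LPS+Tβ4, with a change of -0.23 ± 0.24 (adjusted p = 0.59). Nr1d1 had 45.5, 50.7 and 53.7 CPM there (-0.21 ± 0.19, adjusted p = 0.53).

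Against saline, kidneys given LPS+Tβ4 kept low Hlf (-2.93 ± 0.22, edgeR adjusted p = 0.00018) and had higher Per1 (0.78 ± 0.23, adjusted p = 0.042). This 1 higher and 1 lower member stand against 12.3% and 11.8% of all tested genes (24.1% in either direction), and the members' median change was 0.02, beside -0.0034 over all tested genes. Ranges did not overlap for the same 1 higher and 1 lower member, against 24.7% and 26.2% of all tested genes (50.9% in either direction). Per1 at 66.1, 50.3 and 85 CPM was above all saline libraries, the highest of which had 48.7 CPM. Its call was lost without saline replicate 1 (adjusted p = 0.11), saline replicate 3 (0.12), LPS+Tβ4 replicate 1 (0.098) or LPS+Tβ4 replicate 3 (0.11). Cry1 averaged 6.07 ± 0.9 CPM in LPS+Tβ4 and 4.67 ± 0.75 CPM in saline (SD, n = 3 each), a change of 0.38 ± 0.27 that did not pass (adjusted p = 0.36). Cry2 averaged 21.3 ± 7.34 CPM in LPS+Tβ4 and 16.2 ± 2.59 CPM in saline (0.40 ± 0.32, adjusted p = 0.40). Per3 averaged 11.9 ± 5.1 CPM in LPS+Tβ4 and 23 ± 5.64 CPM in saline (-0.94 ± 0.36, adjusted p = 0.094). It passed under 3 of 22 alternatives, among them that without LPS+Tβ4 replicate 3 (-1.32, adjusted p = 0.033). This comparison shares its LPS+Tβ4 libraries with the one before it and its saline libraries with the first.

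Other genes of the loop, from a list of 17, were tested in the same fit, where 15 were above the expression filter and Arntl2 and Rorb were not. In LPS against saline 5 rose and 1 fell, against 20.9% and 22.2% of all tested genes, so that the list was called at about the rate of the transcriptome, with a median of 0.64. Besides Nfil3 and Tef, the E-box repressors Bhlhe40 and Bhlhe41 rose by 1.74 ± 0.26 (edgeR adjusted p = 0.0012) and 1.70 ± 0.42 (adjusted p = 0.012), and the casein kinases Csnk1e and Csnk1d, which phosphorylate PER proteins and so time their breakdown, rose by 1.31 ± 0.25 (adjusted p = 0.0036) and 0.67 ± 0.12 (adjusted p = 0.0032). Bhlhe40 had 309, 257 and 306 CPM in LPS, against 100, 99 and 61.3 CPM in saline, with no overlap. Of these, Tef, Bhlhe40, Bhlhe41, Csnk1d and Csnk1e each overlap an annotated gene on the opposite strand. In LPS+Tβ4 against LPS 1 of 15 passed, where 6.83% of all tested genes did, with a list median of -0.23.

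In that comparison Nfil3, Bhlhe40, Bhlhe41 and Tef did not pass. Nfil3 averaged 33.5 ± 15.3 CPM in LPS+Tβ4 and 33.3 ± 13.5 CPM in LPS (SD, n = 3 each), Bhlhe40 averaged 311 ± 92.1 CPM in LPS+Tβ4 and 291 ± 28.8 CPM in LPS, and Tef averaged 127 ± 25.5 CPM in LPS+Tβ4 and 107 ± 27 CPM in LPS. Against saline, LPS+Tβ4 kidneys had higher Bhlhe40 (1.84 ± 0.26, edgeR adjusted p = 0.0022), Nfil3 (1.62 ± 0.37, adjusted p = 0.015) and Bhlhe41 (1.47 ± 0.42, adjusted p = 0.036). Tef was lower (-1.12 ± 0.23, adjusted p = 0.009). These were the 4 of 15 that passed where 24.1% of all tested genes did. The call of Nfil3 was lost without saline replicate 2 (adjusted p = 0.053). That of Bhlhe41 was lost without saline replicate 1 or 3 or any 1 LPS+Tβ4 library (adjusted p = 0.051 to 0.0997).

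**Figure D4:**
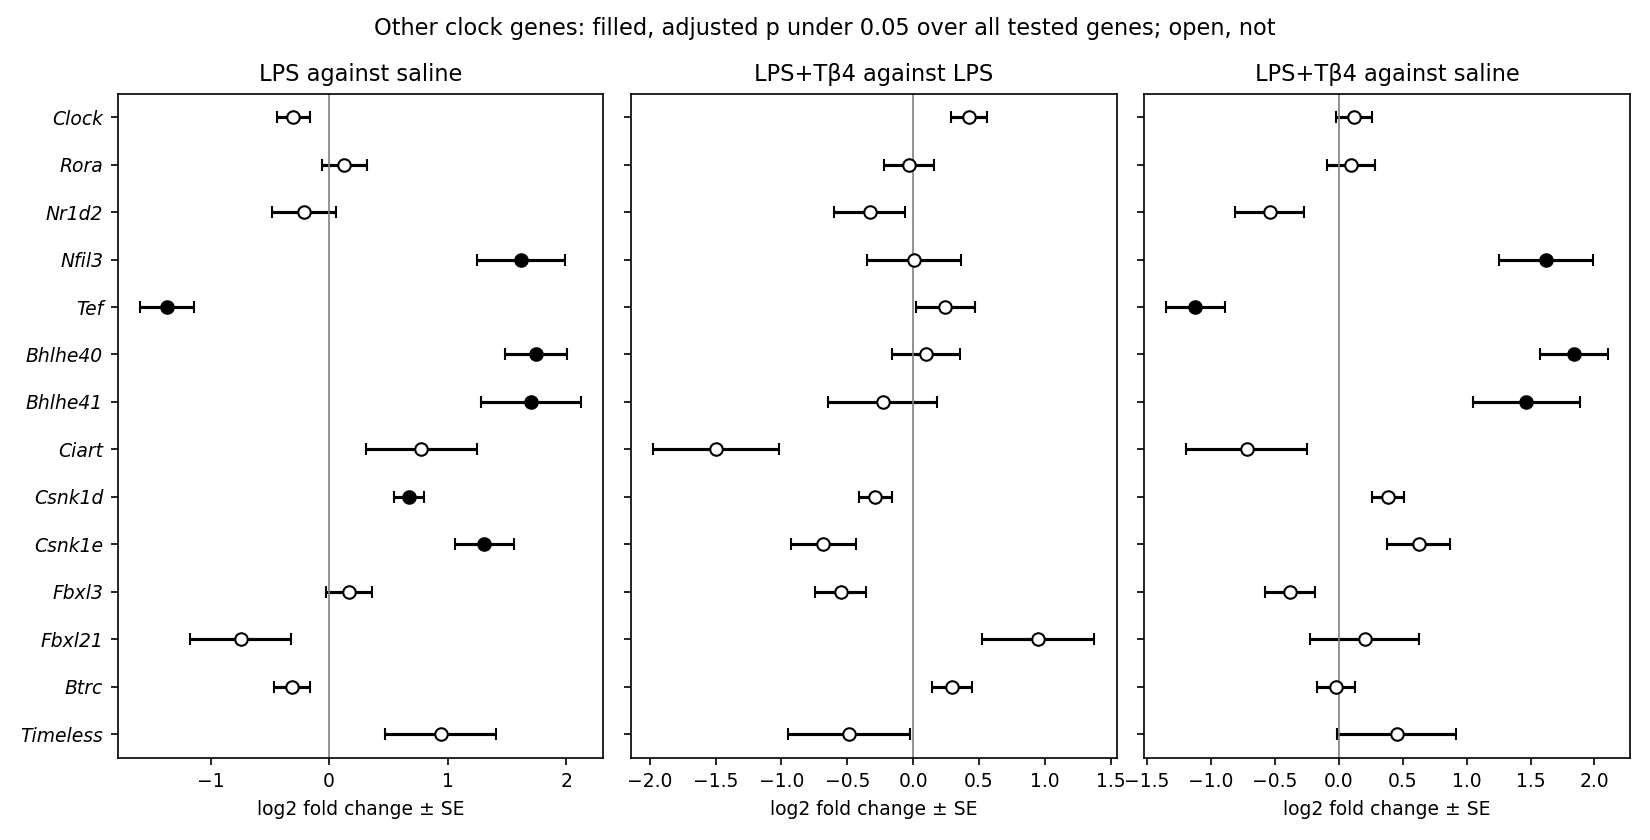
Log2 fold change ± SE of genes of the loop outside the 10, in the same 3 comparisons, filled where the adjusted p was under 0.05. Nfil3, Bhlhe40 and Bhlhe41 lie right of 0 and Tef left of 0 in both comparisons with saline.

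A list of 10 genes known to follow the clock in kidney or other tissues was also tested. In LPS against saline Nampt rose and Usp2 and Avpr2 fell, 3 of 10 where 43.1% of all tested genes passed, with a list median of -0.16. Usp2, a deubiquitinase with a strong daily rhythm, had 29.8, 21 and 23.9 CPM in LPS and 145, 113 and 76.6 CPM in saline (-2.16 ± 0.24, edgeR adjusted p = 0.00032). Nampt, the rate-limiting enzyme of NAD salvage, had 299, 259 and 278 CPM in LPS and 152, 152 and 130 CPM in saline (0.94 ± 0.13, adjusted p = 0.00096). Avpr2, the vasopressin receptor of the collecting duct, had 3.27, 0.61 and 0.036 CPM in LPS and 8.29, 20.6 and 10.5 CPM in saline (-3.32 ± 1.14, adjusted p = 0.043), a call lost on omission of replicate 2 of LPS or of any library of the other groups (adjusted p = 0.052 to 0.13). Its LPS values rested on 213, 32 and 2 counts. The change of Avpr2 ran from -5.29 to -2.75 over the 9 omissions, the lowest without LPS replicate 1, and L1cam and Arhgap4 overlap it on the opposite strand. Between LPS+Tβ4 and LPS, where 6.83% of all tested genes passed, Nampt alone of the 10 did (-0.54 ± 0.13, adjusted p = 0.048), and omission of any library but LPS replicate 1 ended that call (adjusted p up to 0.2). Against saline, where 24.1% passed, Usp2 alone of the 10 did in LPS+Tβ4 kidneys (-1.67 ± 0.24, adjusted p = 0.002). The water channel Aqp2, the sodium channel subunit Scnn1a, the sodium-proton exchanger Slc9a3 and the kinase Sgk1 did not pass in any of the 3 comparisons.

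Replicates within a group were not alike for Per2, Per3 and Dbp. LPS replicate 3, which had 0.93 CPM of urothelial transcripts, had the lowest Per2, Per3 and Dbp of its group. LPS+Tβ4 replicate 3, with 65.9 CPM of urothelial transcripts, had the highest Per2 and Per3 of its group but not the highest Dbp. In saline the order was different, since replicate 1 had the fewest urothelial transcripts while replicate 3 had the lowest Per2, Per3 and Dbp. With the urothelial level as a term in the fit, Per1, Cry1, Cry2 and Hlf passed both in LPS against saline and in LPS+Tβ4 against LPS. In LPS against saline 4 members were then higher in place of 3, and 3627 of 15015 tested genes in place of 3144. The part of tissue sampling in the spread of Per2, Per3 and Dbp was not tested.

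**Figure D5:**
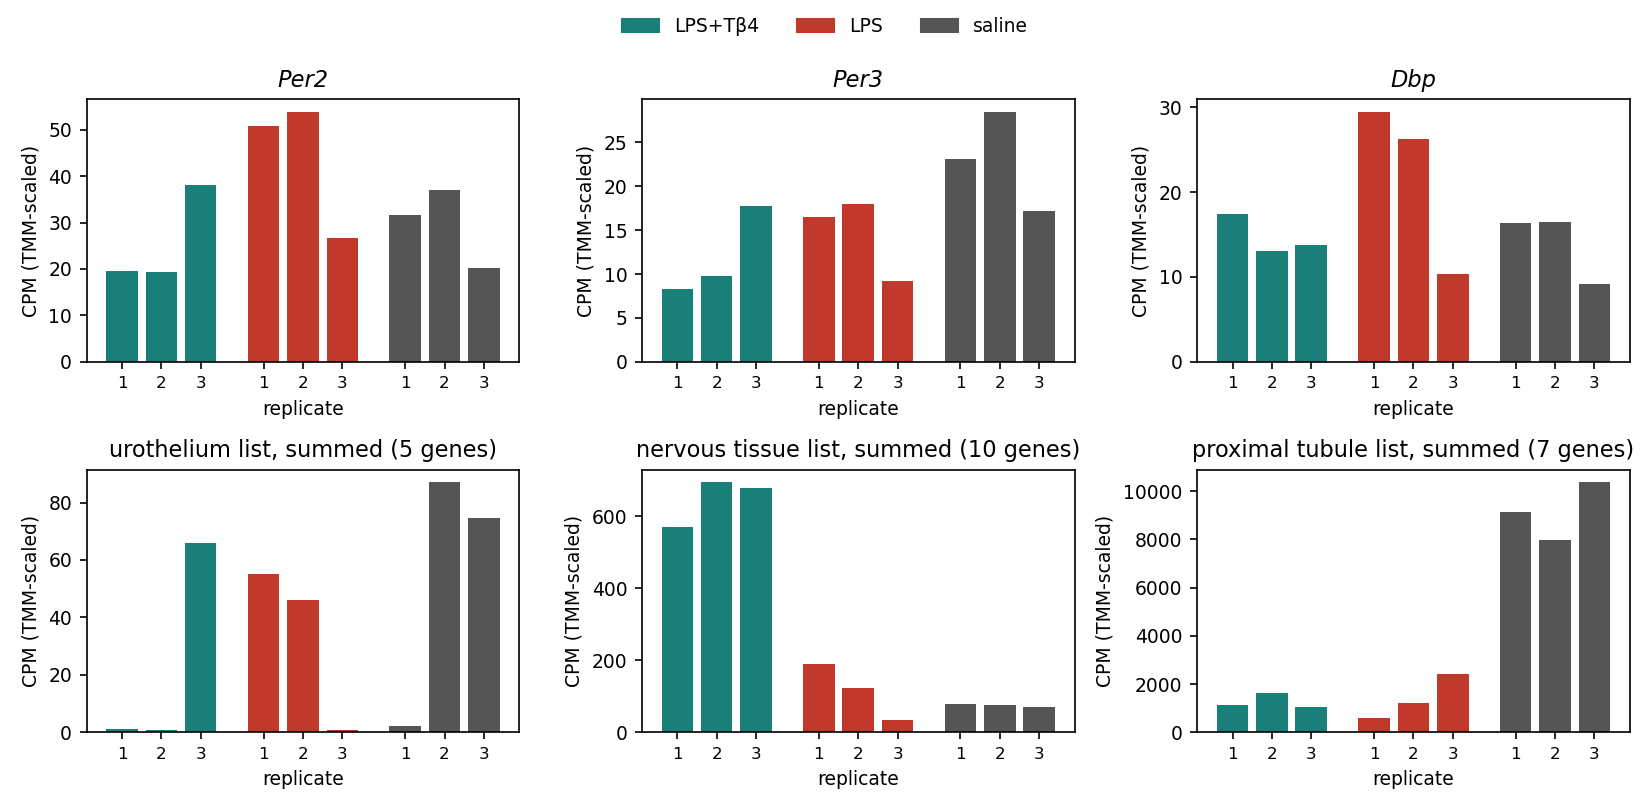
CPM (TMM-scaled) of Per2, Per3 and Dbp and of 3 summed marker lists in each of the 9 libraries, with LPS+Tβ4, LPS and saline from left to right and replicates 1 to 3 within each. Per2 is lowest in LPS replicate 3 and highest in LPS+Tβ4 replicate 3 within their groups, as are the urothelial transcripts. In saline Per2 is lowest in replicate 3, whereas the urothelial transcripts are lowest in replicate 1. All 3 LPS+Tβ4 libraries are high in nervous tissue transcripts.

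Compared per length, the most abundant members were Nr1d1 at 15.4 ± 2.46 FPKM and Per1 at 11.4 ± 3.79 FPKM in LPS+Tβ4, and Per1 at 22.1 ± 3.55 FPKM and Nr1d1 at 17.2 ± 3.3 FPKM in LPS. In saline they were Nr1d1 at 13.8 ± 4.38 FPKM and Hlf at 13.4 ± 0.89 FPKM (SD, n = 3 each), whose order lies within their spread. Hlf was thus level with the leading member in saline and the lowest of the 10 in LPS, at 0.98 ± 0.12 FPKM. The lowest in saline were Cry1 at 1.15 ± 0.26, Npas2 at 1.44 ± 0.67 and Arntl at 1.47 ± 0.39 FPKM, which did not differ beyond their spread. The ratio of Nr1d1 to Arntl, genes that peak at opposite phases of the day in mice, was 7.18 ± 0.81 in LPS+Tβ4, 7.1 ± 1.51 in LPS and 10.1 ± 4.79 in saline, and ran from 5.45 to 15 among the 3 saline kidneys alone.

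Among the 11591 other genes that averaged 1 FPKM or more, predicted Gm and Rik loci left out, those whose log2 CPM over the 9 libraries lay closest to Dbp, after centring and scaling to the same SD, were Mpv17l2, Tspan33, Cdo1, Fam43a and Wtip, with root mean square differences of 0.20 to 0.27 where the SD of Dbp was 0.56. Cdo1, which oxidises cysteine and was picked for this likeness, had 196, 139 and 196 CPM in LPS+Tβ4. It had 254, 216 and 119 CPM in LPS and 136, 151 and 85.9 CPM in saline. Those closest to Arntl, whose SD was 0.37, were Rps3a2, Dlg5, Nup107, Rpsa-ps7 and Plxna2, at 0.12 to 0.16. Rps3a2 and Rpsa-ps7 resemble ribosomal protein genes with which they may share reads.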

How the data were processed

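Per the labels, RNA was made into strand-specific, paired-end poly(A) libraries. The build was GRCm38, and StringTie 2.1.6, HISAT2 2.2.1, cutadapt 1.9, edgeR and DESeq2 were used in roles not named, per the submitters' processing notes. Not given in the sources used here: which program counted reads, how it used strand, and the annotation. The deposited counts are whole numbers per gene, and the deposited FPKM values were computed by the authors; each library has 1 column of each. All members' coordinates equal those of GENCODE M21.

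Counts were tested with edgeR 4.0.16 (R 4.3.3) as in the report, 9 libraries in 1 fit with a mean per group, Benjamini-Hochberg adjusted and 2-sided. The SE is the change divided by the square root of F. DESeq2 1.42.0 and limma 3.58.1 on log2(FPKM + 1) and log2(FPKM + 0.1) were alternatives. The fit was tested on simulated data. Members and lists were chosen with earlier results of these data known. All 10 members were named, with list genes that passed and the 5 genes most like Dbp and Arntl and, from the lists, Clock and some others that missed the test. The design text gives 3 mice a group, so that replicates were taken as separate animals. Deviations of same-numbered libraries correlated at -0.63 to 0.26, so numbers were not used as pairs. Figures used matplotlib 3.10.9. Of the list of other clock genes, 1 is counted but not reported here.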

Additional observations from a re-analysis of the deposited data

How the results depend on the processing

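Of 1106 recomputed log2 fold changes of single genes, 972 kept their direction and their side of the threshold. In LPS against saline, 3754 genes passed with a mean FPKM of at least 5, against 6473, and 1 member was higher in place of 3, since fewer genes were tested; without replicate 3 of both endotoxin groups 6 members were higher. In LPS+Tβ4 against LPS, where 1025 genes passed, 647 did with no filter, 638 at the stricter filter, 2442 by DESeq2, 3 with the 6 libraries compared alone, 1912 without replicate 3 of both groups and 0 with the nervous tissue term, added after the data were seen (3768 had an unadjusted p under 0.05 in edgeR's test without that term). The higher member was lost (0) with no filter, by limma on log2(FPKM + 1), with 6 libraries, and with the nervous term. Lower members numbered 1 with no filter, at the stricter filter and by limma on log2(FPKM + 0.1), and 0 with 6 libraries or the nervous term. Other clock genes numbered 0 with no filter, 6 libraries or the nervous term and 2 by DESeq2. In LPS+Tβ4 against saline, where 3617 genes passed, 2268 did at the stricter filter and 1180 with the nervous term. Per1 was then lost (0 higher members), as with no filter and without replicate 3 of both groups. Lower members numbered 2 by DESeq2 and without replicate 3 of both groups, and other clock genes 8 with 6 libraries and 1 with the nervous term. The causes were not tested.

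The replicate number as a block is a fit on numbers that did not pair the samples. With the replicate block 5 genes passed in LPS+Tβ4 against LPS, with 0 higher members, 0 lower members and 0 other clock genes, and 0 members were higher in LPS+Tβ4 against saline.

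Leaving out 1 library at a time gave 4884 to 6903 genes, 3 to 5 higher and 1 to 1 lower members and 6 to 10 other clock genes in LPS against saline. It gave 68 to 2672 genes, 0 to 1 higher and 0 to 3 lower members and 0 to 4 other clock genes in LPS+Tβ4 against LPS, and 2119 to 4544 genes, 0 to 1 higher and 1 to 2 lower members and 3 to 7 other clock genes in LPS+Tβ4 against saline.

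Only members that did not pass changed direction. With the nervous term Npas2 was at 0.63 in LPS+Tβ4 against LPS, and in LPS+Tβ4 against saline Arntl was at -0.079, Npas2 at 1.48 and Dbp at -1.90. In the last comparison limma gave 0.022 and 0.066 for Npas2 and 0.18 and 0.19 for Nr1d1 with the larger and smaller pseudocount, and no filter gave 0.001 for Nr1d1. Leaving out 1 library gave -0.39 to 0.27 for Npas2, -0.15 to 0.17 for Nr1d1 and -0.12 to 0.25 for Dbp.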
